A study of Mus musculus with 16 samples.

Results

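Peaks of open chromatin at the olfactory receptor genes (Olfr) and the vomeronasal receptor genes (Vmn1r and Vmn2r) were taken from 16 ATAC-seq peak lists of mouse spermatogenic cells. A peak was included where it lay on chromosomes 1 to 19 and a gene name that the authors gave it began with Olfr or Vmn. This gave 4640 of 1088665 autosomal peaks (0.426%), which merged across lists into 1713 of 358583 autosomal regions and named 712 receptor genes. By family, 1229 regions named an Olfr gene, 224 a Vmn1r gene and 260 a Vmn2r gene.

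Olfactory receptors are G-protein-coupled receptors that bind odorants in the nasal epithelium, and vomeronasal receptors bind pheromones and related cues in the vomeronasal organ. In olfactory sensory neurons each cell expresses one Olfr gene, while the other Olfr genes, which stand in large clusters of related copies, are packed in heterochromatin. Some Olfr genes are also known to be transcribed in testis, and Olfr16 (MOR23) is known as an odorant receptor of mouse sperm.

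ATAC-seq finds accessible DNA with the Tn5 transposase, which inserts sequencing adapters there. Cells came from testes of C57BL/6 mice, either Scml2-KO (knockout of Scml2, which encodes a germline Polycomb-related protein) or wild type. Undifferentiated Thy1+ spermatogonia (Thy1) and differentiating c-Kit+ spermatogonia (cKit) were purified at postnatal day 7, and pachytene spermatocytes (PS) and round spermatids (RS) were purified from adult mice. Each stage had 2 Scml2-KO and 2 wild-type libraries. The 8 PS and RS libraries are called adult germ cells below and the 8 Thy1 and cKit libraries spermatogonia, and between them stage and age cannot be told apart. Cells per reaction also followed stage, at 500000 for Thy1 and cKit, 250000 for PS and 1000000 for RS. Cell input and stage cannot be told apart where these numbers differ.

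The lists held 17410 to 163610 autosomal peaks, and the list of replicate 1 was the longer one in 8 of 8 groups. Replicate numbers here are those of the sample titles, and the deposited lists are numbered otherwise. Read depth is not known here, so the lack of a peak says only that nothing at that place reached the authors' threshold, not that the DNA was closed. A peak at the Scml2 promoter was listed in 3 of 8 Scml2-KO and 6 of 8 wild-type libraries, and since the deleted part is not given in the labels this does not check the genotypes. Promoter peaks at the meiotic genes Spo11, Tex12 and Hormad1 and the spermatid genes Tnp1, Prm3 and Acr were present in all 8 adult germ cell libraries and in 0 of 8 spermatogonial ones, while the germ cell genes Dazl and Ddx4 had one in 16 and 14 libraries. The 4 spermatogonial markers did not separate the ages. Gfra1 was open in 5 adult germ cell and 6 spermatogonial libraries, Zbtb16 in 3 and 7, Stra8 in 5 and 5 and Kit in 8 and 8, and 0 of the 3 tested were called (Fisher's exact test). The purified fractions are bulk samples, in which fewer cells with an open site and less opening per cell cannot be told apart.

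The promoter windows of 6 receptor genes are shown because each stands for a pattern described below. Vmn2r29 was open at every stage, Olfr94 was open in all spermatogonial libraries, Olfr15 at several stages, Olfr212 in adult germ cells only, Olfr279 in PS only and Olfr1413 in RS only. Each sequence is the RefSeq window of build GRCm38.p6 from 250 bases before to 50 bases after the annotated start, written 5′ to 3′ on the gene's strand. Capitals mark matches, on either strand, to the 6 motifs searched, which are spelled out after the sequences. The windows lie at chr7:7278240-7278539 (minus strand) for Vmn2r29, chr17:37197917-37198216 (minus) for Olfr94, chr16:3838725-3839024 (plus) for Olfr15, chr6:116506266-116506565 (plus) for Olfr212, chr15:98497224-98497523 (plus) for Olfr279 and chr1:92572875-92573174 (plus) for Olfr1413.
Vmn2r29: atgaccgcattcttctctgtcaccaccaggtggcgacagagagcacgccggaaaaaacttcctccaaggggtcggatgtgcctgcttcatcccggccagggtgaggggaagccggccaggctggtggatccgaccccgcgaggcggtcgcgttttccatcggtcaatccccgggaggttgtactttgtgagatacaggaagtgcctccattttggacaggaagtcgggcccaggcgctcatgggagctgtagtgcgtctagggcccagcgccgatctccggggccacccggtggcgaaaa
Olfr94: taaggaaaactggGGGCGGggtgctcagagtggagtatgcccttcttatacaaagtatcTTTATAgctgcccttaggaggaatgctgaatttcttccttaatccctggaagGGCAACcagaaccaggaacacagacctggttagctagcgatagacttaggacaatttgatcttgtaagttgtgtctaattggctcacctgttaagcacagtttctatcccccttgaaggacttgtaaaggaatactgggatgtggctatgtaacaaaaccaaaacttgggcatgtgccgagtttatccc
Olfr15: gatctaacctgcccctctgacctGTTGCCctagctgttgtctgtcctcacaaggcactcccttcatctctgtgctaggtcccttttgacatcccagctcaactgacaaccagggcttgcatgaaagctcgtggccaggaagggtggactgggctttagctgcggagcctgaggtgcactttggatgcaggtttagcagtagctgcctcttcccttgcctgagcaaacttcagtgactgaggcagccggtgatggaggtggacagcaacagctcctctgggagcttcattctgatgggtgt
Olfr212: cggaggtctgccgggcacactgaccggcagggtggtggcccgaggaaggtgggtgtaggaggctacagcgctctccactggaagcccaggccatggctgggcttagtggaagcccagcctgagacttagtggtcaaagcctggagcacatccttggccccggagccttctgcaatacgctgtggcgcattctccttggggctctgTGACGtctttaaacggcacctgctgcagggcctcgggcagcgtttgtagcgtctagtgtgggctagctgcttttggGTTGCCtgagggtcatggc
Olfr279: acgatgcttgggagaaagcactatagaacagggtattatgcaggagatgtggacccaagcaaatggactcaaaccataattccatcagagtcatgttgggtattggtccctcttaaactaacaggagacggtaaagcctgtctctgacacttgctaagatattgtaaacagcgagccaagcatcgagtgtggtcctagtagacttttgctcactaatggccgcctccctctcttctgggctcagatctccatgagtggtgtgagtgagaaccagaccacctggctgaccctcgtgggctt
Olfr1413: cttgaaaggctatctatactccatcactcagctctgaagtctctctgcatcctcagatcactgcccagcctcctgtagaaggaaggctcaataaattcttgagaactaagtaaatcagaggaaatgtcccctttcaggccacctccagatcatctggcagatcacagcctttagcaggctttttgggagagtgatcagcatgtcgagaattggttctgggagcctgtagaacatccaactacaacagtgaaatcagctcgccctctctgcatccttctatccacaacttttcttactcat

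The Vmn2r29 window was 62.3% G and C with 23 CpG dinucleotides and held none of the 6 motifs. Olfr212 had the same G and C content of 62.3% with 13 CpG, and it held a CRE motif and an RFX motif. Olfr94 (45.0% G and C, 3 CpG) held a GC box, a TATA box and an RFX motif that did not overlap each other, and Olfr15 (55.7%, 3 CpG) an RFX motif. The windows of Olfr279 and Olfr1413 held no match.

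Receptor windows in general were poorer in G and C than these. Of the receptor symbols, 1260 had a window on an autosome, with a median G and C content of 35.7% (quartiles 32.3% and 39.3%) and a median of 1 CpG, whereas the 24488 windows of other genes had medians of 53.7% and 8 CpG. The homeodomain core, TAATTA, was found in 16.6% of receptor windows and 5.36% of all 25748 windows. The TATA box, TATAAA, was found in 39.6% and 14.2%. The other motifs were less frequent in receptor windows than in all windows.

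The GC box, GGGCGG, was found in 0.794% of receptor windows and 36.0% of all windows. The CRE motif, TGACG, was found in 5.40% and 20.9%. The RFX motif, GTTGCC, was found in 4.76% and 12.3%.

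The EBF palindrome, CCCNNGGG, was found in 4.13% of receptor windows and 13.7% of all windows. A match is a run of letters, not a shown binding site. At 76.3% of receptor windows the annotated start was the letters ATG, against 2.72% of windows of other genes. For such genes the annotated start may be that of the coding sequence. A promoter class peak there need not lie at the start of transcription, and a peak at that start may be classed as upstream.

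Receptor peaks were few for the number of genes. Receptors make up 1458 of 20661 autosomal protein-coding genes in RefSeq (7.06%), against 0.427% ± 0.106 of the autosomal peaks of a library (SD, n = 16). The first is a share of genes and the second a share of peaks, which need not match. The part of gene length, and of reads that map to several receptor copies, was not tested. Receptor peaks also lay elsewhere than other peaks. In the authors' annotation, the promoter class holds peaks with an edge within 1000 bp of a transcription start, and the upstream class those farther out, to about 20 kb before it. Promoter class peaks made up 6.84% ± 2.38 of the receptor peaks of a library and 31.7% ± 15.95 of all other autosomal peaks (SD, n = 16), lower in 16 of 16 libraries, a difference of -24.8 percentage points (exact sign-flip permutation test over libraries, two-sided, adjusted p = 0.000244, the smallest this test can give). Upstream peaks were 37.3% ± 7.84 of receptor peaks and 10.0% ± 1.74 of the others. Intergenic peaks were 52.4% ± 9.80 and 25.7% ± 6.29, whereas intron peaks were 3.11% ± 2.18 and 26.8% ± 8.27. Receptor genes are short in RefSeq, with 75.0% of them under 1100 bp long against 2.65% of other genes. For the 4061 receptor peaks with 1 gene name, the median distance from the summit to the annotated start was 19970 bp. Of these peaks, 29.0% lay beyond 50 kb. For other peaks with 1 gene name the values were 27269 bp and 40.1%.

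**Figure D1:**
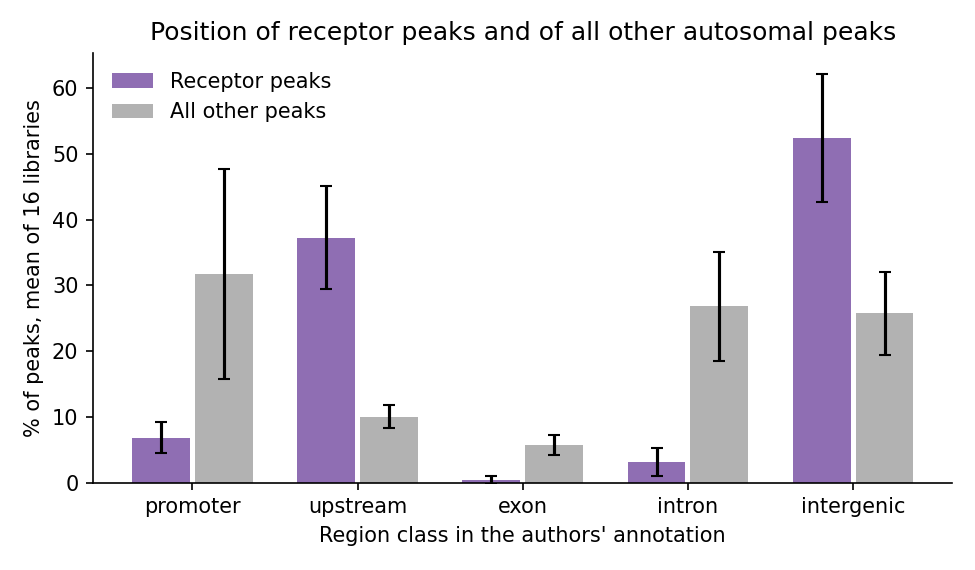
Share of peaks in each region class of the authors' annotation, for receptor peaks (purple) and all other autosomal peaks (grey). Bars are means over 16 libraries and error bars are SD. Promoter class peaks were 6.84% of receptor peaks and 31.7% of the others, and intergenic peaks 52.4% and 25.7%.

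Receptor peaks also had a lower fold enrichment. The authors' fold enrichment, a ratio of the pileup at the summit over background, had a median of 4.95 ± 0.333 at receptor peaks and 5.33 ± 0.555 at all other peaks (mean ± SD of library medians, n = 16). The mean log2 ratio was -0.10 (exact sign-flip permutation test, adjusted p = 0.0117). The receptor median was lower in 10 of 16 libraries, equal in 5 and higher in 1, RS Scml2-KO replicate 1. The comparison was not made within region class, and promoter class peaks were 6.84% of receptor peaks against 31.7% of the others. The part of region class in the fold enrichment difference was not tested. Receptor peaks had a median length of 214 ± 26.2 bp per library, against 268 ± 55.1 bp for the others. Of the 1713 regions, 918 (53.6%) were open in 1 library only, close to the 53.9% of all autosomal regions, but only 4 were open in all 16 libraries (0.234%, against 2.24%).

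The 4 regions that were open everywhere were intergenic. Those open in 16 of 16 libraries carried the names Vmn1r77 (chr7:12010367-12010910), Vmn1r238 (chr18:3005597-3005998), Olfr291 (chr7:84778880-84780166) and Olfr19 (chr16:16599390-16600855). At Vmn1r77 the fold enrichment ran between 3.97 and 21.4 over the 16 libraries. At Olfr291 it was between 4.20 and 20.4. An intergenic region named for Vmn2r87 (chr10:130593856-130595041) was open in 15 libraries. The Vmn1r238 region lies close to the first sequenced position of its chromosome, where the assembly begins at about 3 Mb, and 79 of the 1713 regions lay within 3 to 3.5 Mb of a chromosome.

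Promoter class peaks at receptor genes were rare. Such a peak was listed for 109 receptor genes in at least 1 library. Among protein-coding genes, this held for 104 of 1458 receptors (7.13%) and for 70.5% of all genes. In at least 4 libraries it held for 24 receptors (1.65%) against 64.1%, and in all 16 libraries for 0 receptors against 35.8%. The annotated start of most receptors was the letters ATG, so peaks at a start of transcription farther out may not be counted here. The part of annotation in these shares was not tested. With pseudogenes included, 26 receptor promoters recurred in at least 4 libraries, 34 were open in 2 or 3 and 49 in 1.

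Of the 26 recurrent promoters, 11 were open in adult germ cells only (42.3%), 9 in spermatogonia only (34.6%) and 6 at both ages (23.1%). Over all 7268 promoters open in 4 to 15 libraries these shares were 8.6%, 10.1% and 81.3%, and with those open in all 16 included they were 4.01%, 4.68% and 91.3%. By genotype, 6 were open in more Scml2-KO libraries (23.1%, against 33.4%), 16 in more wild-type libraries (61.5%, against 40.4%) and 4 in equal numbers (15.4%, against 26.3%). The sets were not matched on the number of open libraries, and their difference was not tested. With lists of equal length 5 receptor promoters recurred. Windows were available for 19 of the 26, with a median G and C content of 45.0% against 35.7% for the other receptors, and 3 CpG against 1. The CRE motif was in 4 of the 19 (21.1%, against 5.16%), the RFX motif in 3 (15.8%, against 4.59%), the TATA box in 3 (15.8%, against 39.97%), the homeodomain core in 4 (21.1%, against 16.5%), and the EBF palindrome and the GC box in 1 each (5.26%, against 4.11% and 0.725%). These are descriptions of a small set, and 11 of the 19 windows were overlapped by a receptor region. Of the windows with a CRE motif, that of Olfr212 was overlapped, and those of Olfr66, Olfr455 and Olfr433 were not overlapped by a promoter class region of their gene. The windows with an RFX motif, of Olfr94, Olfr15 and Olfr212, were overlapped.

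**Figure D2:**
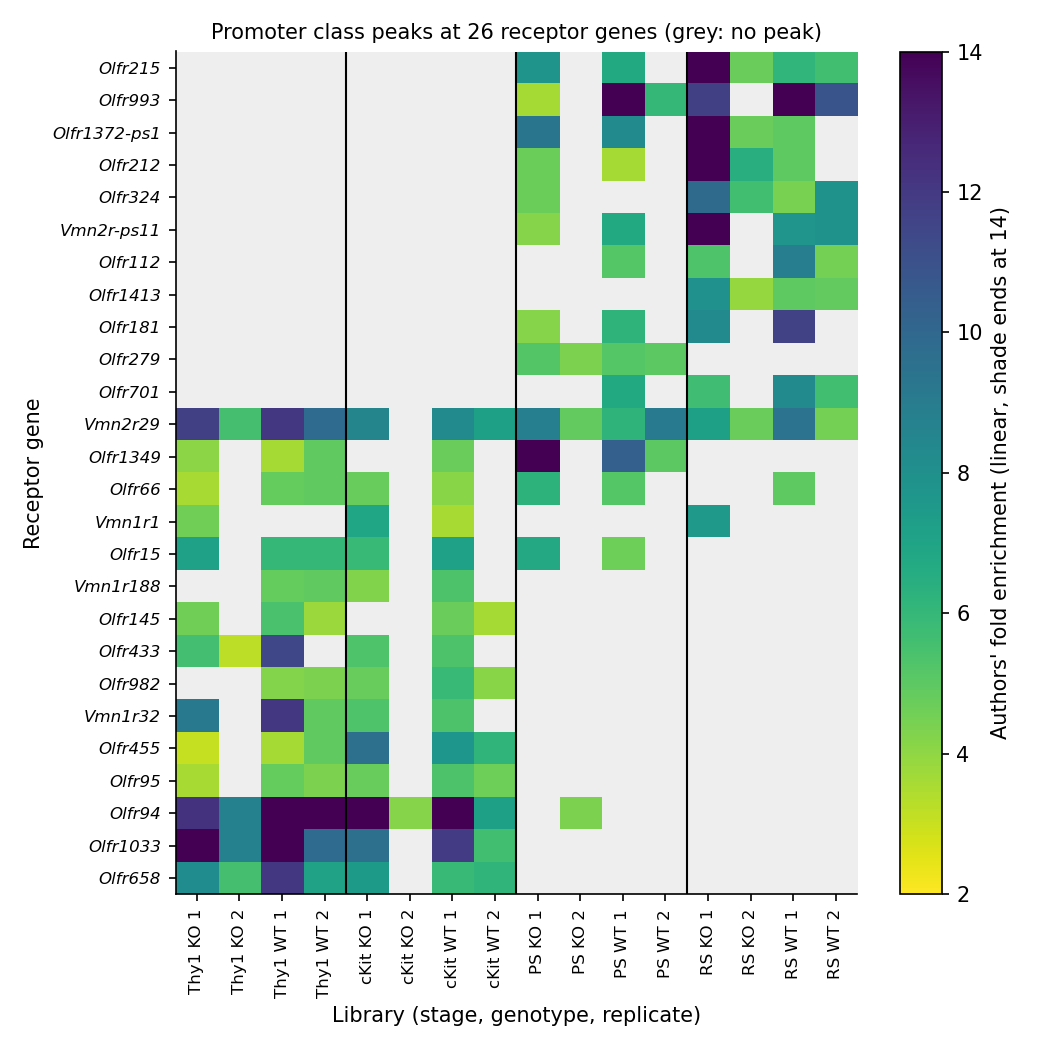
Authors' fold enrichment (linear ratio, colour) of the promoter class peak at each of the 26 receptor genes with such a peak in at least 4 libraries. Columns are libraries by stage, Scml2-KO left of wild type, and grey cells have no peak. The 11 genes at the top were open in adult germ cells only, and of those below them 9 were open in spermatogonia only and 6 at both ages, with Vmn2r29 in 15 of 16 libraries.

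Vmn2r29, a receptor gene of the V2R family, had the most widely open promoter. Its fold enrichment was 11.7 and 5.56 in Thy1 Scml2-KO, 12.1 and 9.82 in Thy1 wild type, 8.52 in one cKit Scml2-KO library, and 8.31 and 7.20 in the cKit wild-type libraries. In PS it was 8.84 and 4.89 in Scml2-KO and 6.19 and 9.05 in wild type, and in RS 7.19 and 4.76 in Scml2-KO and 9.41 and 4.51 in wild type. The one library without the peak was cKit Scml2-KO replicate 2, which had the shortest list. The merged peak (chr7:7277539-7278654) covered the annotated start and the whole CpG-rich window printed above.

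Olfr94 was the receptor promoter most regularly open in spermatogonia. Its fold enrichment was 12.2 and 8.74 in Thy1 Scml2-KO, 14.5 and 14.7 in Thy1 wild type, 20.2 and 4.20 in the cKit Scml2-KO libraries, against 17.8 and 7.20 in the cKit wild-type libraries. Among adult germ cells it was listed once, in a PS Scml2-KO library at 4.35. It was open in 1 of 8 adult germ cell and 8 of 8 spermatogonial libraries (Fisher's exact test per gene, adjusted p = 0.00893 over the 3621 genes open in 5 to 11 libraries). Olfr95, whose start lies on the same strand of the same chromosome (chr17:37211851), was open in 0 of 8 adult germ cell and 6 of 8 spermatogonial libraries (adjusted p = 0.0247, same exact test), at 3.57 to 5.34.

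Olfr1033 and Olfr658 were each open in 0 of 8 adult germ cell and 7 of 8 spermatogonial libraries (adjusted p = 0.00893 for both, Fisher's exact test), and both lacked the peak in cKit Scml2-KO replicate 2. Olfr1033 had a fold enrichment of 17.8 and 8.74 in Thy1 Scml2-KO, 17.5 and 9.82 in Thy1 wild type, 9.59 in one cKit Scml2-KO library, against 11.9 and 5.65 in the cKit wild-type libraries. Olfr658 lay between 5.56 and 12.1. Olfr455 completed the genes called higher in spermatogonia, with 0 of 8 adult germ cell and 6 of 8 spermatogonial libraries (adjusted p = 0.0247, same exact test).

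In adult germ cells, Olfr993 and Olfr215 were each open in 6 of 8 libraries against 0 of 8 spermatogonial libraries (adjusted p = 0.0247 for both, Fisher's exact test). Olfr993 had a fold enrichment of 3.64 in one PS Scml2-KO library, 17.0 and 6.03 in PS wild type, 11.7 in one RS Scml2-KO library, and 18.8 and 10.9 in RS wild type. Olfr215 had 7.80 in one PS Scml2-KO and 6.71 in one PS wild-type library, then 21.2 and 4.76 in RS Scml2-KO and 6.09 and 5.64 in RS wild type. The pseudogene Olfr1372-ps1, Vmn2r-ps11, Olfr324 and Olfr212 were each open in 5 adult germ cell and 0 spermatogonial libraries and did not pass the threshold (adjusted p = 0.0553 each, exact test).

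A test was possible for the 18 receptor promoters that were open in 5 to 11 libraries. It called 2 higher in adult germ cells (11.1%, against 9.17% of all tested promoters) and 5 higher in spermatogonia (27.8%, against 23.6%). Without cKit Scml2-KO replicate 2 the calls were 6 and 9, without PS Scml2-KO replicate 2 they were 6 and 5, and without PS wild-type replicate 2 also 6 and 5. Other settings gave fewer, with 1 and 2 in lists of equal length, 0 and 3 at −log10 q of at least 5, at fold enrichment of at least 5 and with all genes tested, and 0 and 0 in replicate 2 lists alone and in Scml2-KO alone. Wild type alone gave 1 and 7. Runs with 1 genotype or 1 replicate set 4 against 4 libraries and test only promoters open in 4 of the 8. The smallest p of Fisher's exact test is then 0.0286, and adjustment calls every fully separated promoter or none. Their counts therefore cannot compare the genotypes.

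A few promoters kept to one stage. Olfr279 was open in 4 of 4 PS libraries, at 5.20 and 4.35 in Scml2-KO and 5.16 and 5.03 in wild type, and in 0 of the other 12. Olfr1413 was open in 4 of 4 RS libraries, at 7.95 and 3.90 in Scml2-KO and 4.98 and 4.88 in wild type, and nowhere else. Olfr324 was open in 4 of 4 RS libraries and in one PS Scml2-KO library. With 4 libraries a stage, these are given as a description.

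Of the promoters open at both ages, Olfr66 (a neighbour of the beta-globin genes) was open in 3 adult germ cell and 5 spermatogonial libraries (adjusted p = 0.716, exact test), at 3.57 to 6.24. Its nearest peak lay 626 bp from the annotated start, outside the promoter window. Olfr15 was open in 2 adult germ cell and 5 spermatogonial libraries (adjusted p = 0.3998), and Olfr1349 in 3 and 4 (adjusted p = 1, exact tests). At one age only, Olfr433 was open in 0 adult germ cell and 5 spermatogonial libraries and did not pass the threshold (adjusted p = 0.0553, exact test).

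Olfr16, the receptor known from sperm, was named by 0 peaks in any library. The nearest peak of any library lay 3780 bp from its start, and 4 libraries had a peak within 20 kb, which the authors' annotation gave to Olfr1408.

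Across all receptor regions, 249 were open in 5 to 11 libraries, and the ages were compared at each with Fisher's exact test, adjusted over the 47411 such autosomal regions. It called 44 regions higher in adult germ cells (17.7%, against 14.8% of all tested regions) and 134 higher in spermatogonia (53.8%, against 46.4%). The shares of receptor regions were close to those of all regions. The calls in adult germ cells were 33 at Olfr, 7 at Vmn1r and 4 at Vmn2r genes, and those in spermatogonia 96, 11 and 27. Adult calls lay at 5 promoter, 18 upstream and 21 intergenic regions. Spermatogonial calls lay at 7 promoter, 57 upstream, 8 intron and 59 intergenic regions, and 3 regions held peaks of several classes. The number of regions tested in each family and class is not given here. These counts therefore do not show whether any family or class was called more often than others. With the same number of peaks taken from every list, 19 and 22 were called. In 4 against 4 libraries of one genotype, 0 and 0 were called in Scml2-KO and 20 and 66 in wild type. With 4 against 4, only regions open in 4 of the 8 libraries are tested, and the smallest p of Fisher's exact test is 0.0286. Adjustment over all such regions then calls every fully separated region or none, so these counts cannot compare the genotypes. In replicate 2 lists alone 3 and 14 were called, and with all regions tested 3 and 9.

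**Figure D3:**
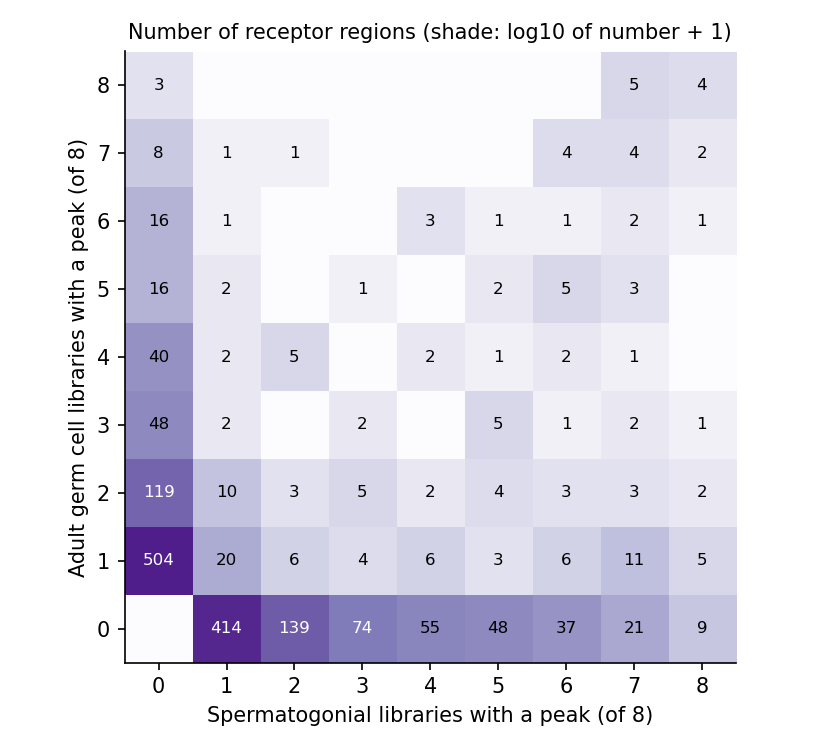
Number of receptor regions (printed in each cell, shade on a log10 scale) by the number of adult germ cell libraries and of spermatogonial libraries with a peak, of 8 each. The largest numbers are 504 regions in 1 adult germ cell library alone and 414 in 1 spermatogonial library alone, while 3 regions were open in 8 adult and 0 spermatogonial libraries and 9 the other way.

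Regions present in every library of one age and in none of the other numbered 3 for adult germ cells (1.205% of 249, against 1.28%) and 9 for spermatogonia (3.61%, against 2.6%). The adult regions were all intergenic, 1 named for Olfr1286 (chr2:111384387-111385007) and 2 for Olfr441 (chr6:43014784-43017364 and chr6:43066621-43067556), each with an adjusted p of 0.00400 (Fisher's exact test). At Olfr1286 the fold enrichment was 9.36 and 4.35 in PS Scml2-KO, against 19.1 and 5.53 in PS wild type. It was 20.8 and 5.63 in RS Scml2-KO, against 24.9 and 18.4 in RS wild type. The highest median among the called regions was 16.9, upstream of Vmn1r198 (chr13:22347440-22347949), open in 7 of 8 adult germ cell and 0 of 8 spermatogonial libraries (adjusted p = 0.00879, exact test). Regions at Olfr1230 and Olfr1231, Olfr281, Olfr478 and Olfr765 had the same counts and the same adjusted p.

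Among the spermatogonial regions, one named for Olfr933 (chr9:38953141-38954659) had a fold enrichment of 15.3 and 14.3 in Thy1 Scml2-KO, 14.5 and 10.9 in Thy1 wild type, 18.1 and 4.72 in the cKit Scml2-KO libraries, against 13.1 and 9.77 in the cKit wild-type libraries, with no peak in adult germ cells. Regions of this kind also lay at Olfr19 (chr16:16596733-16597536, not the region open in all 16 libraries), Olfr31, Olfr984, Vmn2r6, Olfr90 and Vmn2r31 (adjusted p = 0.00400 each, exact test), with median fold enrichments of 7.13 to 10.2. One more, upstream of Olfr750 (chr14:51082589-51083716), also carried the names Ang and Rnase4, which encode ribonucleases, and cannot be assigned to the receptor. In the same comparison, 6 of the 7 promoters fixed as markers of somatic testis cells could be tested. All 6 were called higher in spermatogonia (against 23.6% of all tested promoters), Clu and Cst12 of Sertoli cells, Acta2 and Lmod1 of peritubular cells and Cdh5 and Kdr of endothelial cells. They were open in 0 to 2 adult germ cell and 6 to 8 spermatogonial libraries. Wt1, also a Sertoli cell marker, was open in 4 and 8, too many libraries for the test. The part of somatic cells in the receptor calls was not tested.

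Between consecutive stages, 4 libraries stood against 4. For cKit against Thy1, 68 receptor regions were open in 4 of 8 libraries, 0 in all of cKit alone (0%, against 0.063% of all such regions) and 3 in all of Thy1 alone (4.41%, against 13.0%). The Thy1 regions lay upstream of Olfr478 and Olfr479, at Olfr1010 and upstream of Olfr876, with median fold enrichments of 6.56, 4.93 and 3.95. For PS against cKit, 11 of 52 regions were open in all of PS alone (21.2%, against 26.3%) and 15 in all of cKit alone (28.8%, against 23.9%). Those of PS included Olfr1286, Olfr281 and a region named for Olfr765 (chr10:129041931-129043466), and those of cKit included the spermatogonial regions at Olfr933, Olfr19 and Olfr31. For RS against PS, 2 of 53 regions were open in all of RS alone (3.77%, against 2.79%) and 7 in all of PS alone (13.2%, against 3.85%). Both RS regions were promoters, those of Olfr324, whose PS peak lay at another place, and Olfr1413. The Olfr765 region was at 27.0 and 7.61 in PS Scml2-KO and 18.1 and 6.03 in PS wild type and had no peak in RS. Regions at Olfr805 and Vmn1r77 (chr7:11970725-11971205, not the region open in all 16 libraries) were likewise open in 4 of 4 PS and 0 of 4 RS libraries. After adjustment Fisher's exact test called 0 receptor regions at any step, and also 0 of all autosomal regions. Each fully separated region had an unadjusted p of 0.0286 in this test, the smallest that 4 against 4 allows. Adjustment then calls every fully separated region or none, so the 0 says nothing particular to receptor regions. The counts of separated regions moved without single libraries. For cKit against Thy1 they were 0 and 22 without Thy1 Scml2-KO replicate 2, and 0 and 7 without Thy1 wild-type replicate 2. Leaving out cKit Scml2-KO replicate 1 gave 0 and 9, cKit Scml2-KO replicate 2 gave 2 and 3, and cKit wild-type replicate 1 gave 0 and 5. For PS against cKit they were 11 and 75 without cKit Scml2-KO replicate 2 and 32 and 17 without PS Scml2-KO replicate 2. For RS against PS they were 2 and 15 without PS Scml2-KO replicate 2 and 10 and 10 without RS Scml2-KO replicate 2.

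Because the lists differed in length, receptor peaks were compared between genotypes as a share of all autosomal peaks. The share was 0.369% and 0.347% in Thy1 Scml2-KO against 0.447% and 0.620% in Thy1 wild type. In cKit it was 0.516% and 0.333% in Scml2-KO against 0.472% and 0.503% in wild type. In PS it was 0.347% and 0.276% in Scml2-KO against 0.520% and 0.449% in wild type, and in RS 0.301% and 0.279% against 0.541% and 0.517%. Scml2-KO libraries lay below both wild-type libraries at Thy1, PS and RS, and the genotypes overlapped at cKit. For the shortest list, cKit Scml2-KO replicate 2, the Wilson 95% interval was 0.258% to 0.430%, which covers counting error only.

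**Figure D4:**
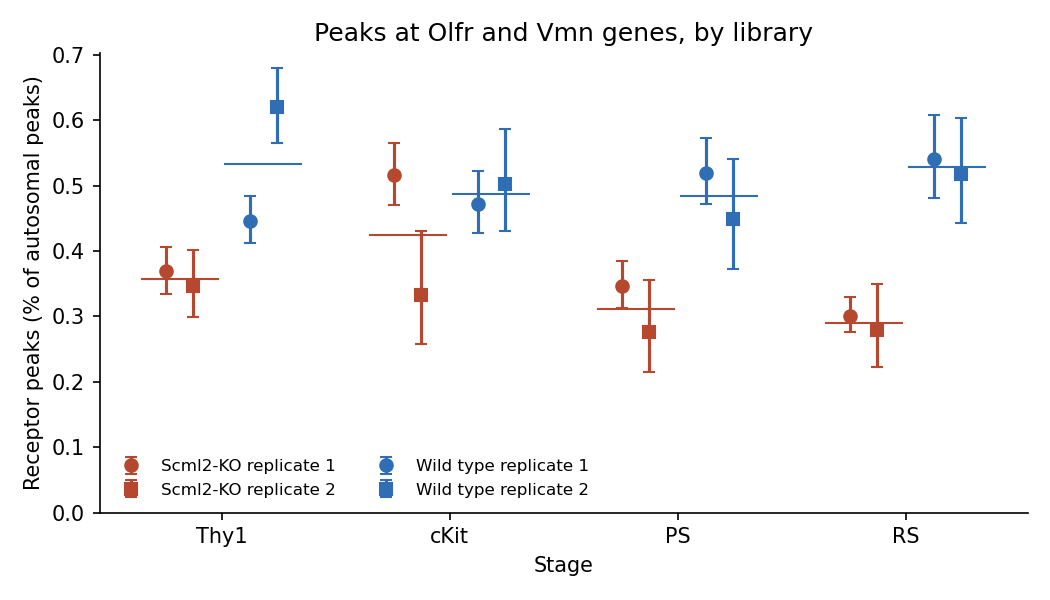
Receptor peaks as a percentage of the autosomal peaks of each library, by stage, with Scml2-KO (red) left of wild type (blue). Points are libraries, vertical bars are Wilson 95% intervals and horizontal lines are group means. Scml2-KO libraries lie below the wild-type ones at Thy1, PS and RS, and overlap with them at cKit.

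The share was lower in Scml2-KO, at 0.346% ± 0.0765, than in wild type, at 0.509% ± 0.0566 (SD, n = 8 each). The difference of -0.163 percentage points passed an exact permutation test within stages over 1296 arrangements (two-sided, adjusted p = 0.0123 over 8 summary tests). Stage by stage it was -0.176 at Thy1, -0.0631 at cKit, -0.173 at PS and -0.239 at RS, each with 2 libraries a genotype and no test. Whether it differed between the ages was tested once, with a difference of -0.0866 (exact permutation test, p = 0.469). The call held without any single library (-0.187 to -0.147). It did not hold as a share of intergenic and upstream peaks alone, where Scml2-KO had 0.968% and wild type 1.23% (adjusted p = 0.571, exact permutation test, chosen after seeing the data), and without the shortest list these values were 0.862% and 1.23% (p = 0.00772, adjusted p = 0.0617).

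By family, Olfr peaks were 0.235% ± 0.0602 of the peaks of Scml2-KO libraries and 0.356% ± 0.0420 of those of wild type, lower in Scml2-KO at 4 of 4 stages. Vmn2r peaks were 0.0525% ± 0.0244 and 0.0848% ± 0.0164, also lower at 4 of 4 stages, and Vmn1r peaks 0.0582% ± 0.0264 and 0.0680% ± 0.0132, lower at 3 of 4 stages (SD, n = 8 each). As a share of intergenic and upstream peaks the Olfr, Vmn2r, Krtap, Defb and other chemoreceptor means were also lower in Scml2-KO, but the Vmn1r mean was higher, at 0.2013% in Scml2-KO and 0.187% in wild type. It was lower in Scml2-KO at 3 of 4 stages, and without cKit Scml2-KO replicate 2, where 20 Vmn1r peaks were 0.601% of such peaks, the Scml2-KO mean was 0.144%. Other clustered gene families were counted the same way. Peaks at keratin-associated protein genes (Krtap) were 0.0159% ± 0.0115 in Scml2-KO and 0.0359% ± 0.0176 in wild type, those at the trace amine and taste receptor genes 0.0396% ± 0.0169 and 0.0475% ± 0.0101, and those at beta-defensin genes (Defb) 0.0153% ± 0.0119 and 0.0201% ± 0.0106. These family values had no test.

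The lower share in Scml2-KO lay at peaks with many receptor genes around them. This split was made after seeing the data and is a description with no test. Peaks with 10 or more RefSeq receptor genes within 250 kb were 0.128% ± 0.0424 of autosomal peaks in Scml2-KO and 0.234% ± 0.0462 in wild type, a ratio of 0.544. Peaks with 2 to 9 were 0.135% ± 0.0441 and 0.199% ± 0.0288, a ratio of 0.678. Peaks with 0 or 1 were 0.0832% ± 0.0252 and 0.0748% ± 0.0214, a ratio of 1.11 (SD, n = 8 each). That class takes in peaks that carry a receptor name but have 0 RefSeq receptor genes within 250 kb. The part of the distance to the named gene in this split was not tested. Mean shares were lower in Scml2-KO at 4 of 4 stages in the first and second class, without overlap at 3, and at 1 of 4 stages in the last, where the genotypes overlapped throughout.

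In the densest class the RS libraries stood farthest apart, at 0.137% and 0.0966% in Scml2-KO against 0.300% and 0.275% in wild type. PS libraries were at 0.126% and 0.0874% in Scml2-KO against 0.257% and 0.194% in wild type. Thy1 libraries were both at 0.140% in Scml2-KO against 0.194% and 0.272% in wild type, and cKit libraries at 0.214% and 0.0804% against 0.193% and 0.190%. By chromosome, mean receptor shares were lower in Scml2-KO at 4 of 4 stages on chromosomes 2, 6, 7, 9, 10, 13 and 17. On chromosome 2 they were 0.0254% ± 0.0193 in Scml2-KO and 0.0594% ± 0.0157 in wild type, and on chromosome 7 0.0488% ± 0.0197 and 0.0843% ± 0.0211. On chromosome 11, with 83 RefSeq receptor genes, they were 0.0188% ± 0.0140 and 0.0155% ± 0.00638, lower in Scml2-KO at 2 of 4 stages. On chromosome 16 they were 0.0334% ± 0.0146 and 0.0327% ± 0.0118, and on chromosome 19 0.0146% ± 0.00381 and 0.0147% ± 0.00695 (SD, n = 8 each). Means were higher in Scml2-KO than in wild type on chromosomes 4, 8, 11, 16 and 18.

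**Figure D5:**
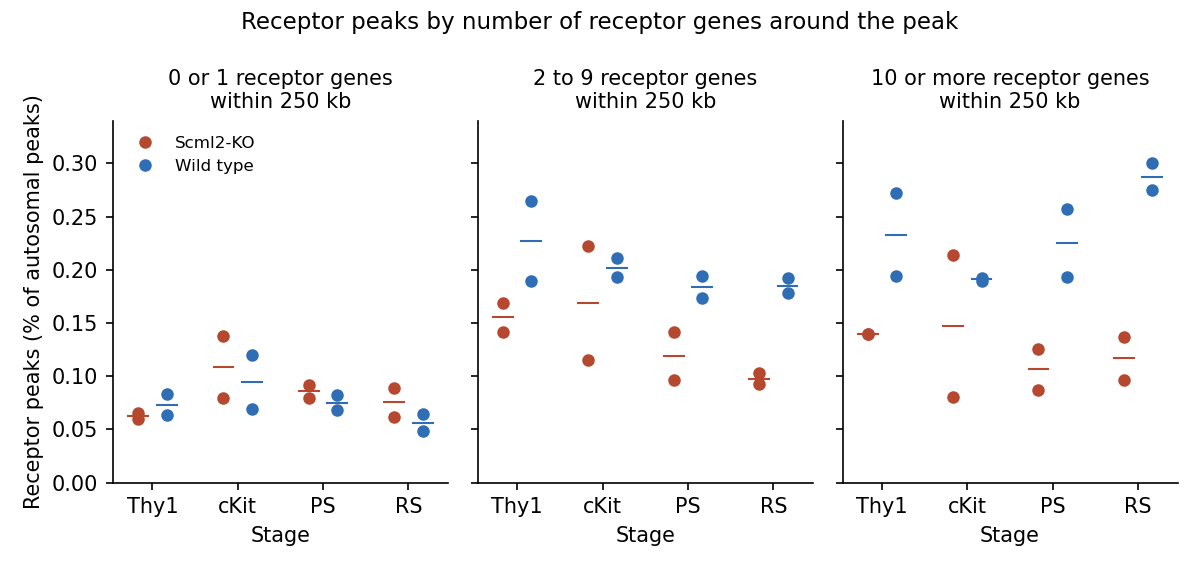
Receptor peaks as a percentage of autosomal peaks, split by the number of RefSeq receptor genes within 250 kb of the peak, with Scml2-KO (red) left of wild type (blue) at each stage. Points are libraries and horizontal lines are means of 2. With 10 or more receptor genes around, wild-type means lie above Scml2-KO means at all 4 stages, whereas with 0 or 1 the points of the genotypes intermingle.

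Single regions gave no genotype call. Of 8487 autosomal regions that an exact permutation test within stages could call, 29 were receptor regions, and 0 of them passed at an adjusted or an unadjusted threshold (over all 8487, 0 adjusted and 0.153% higher and 1.0% lower in Scml2-KO unadjusted). The lowest p was 0.153 (exact permutation test), at regions named for Olfr824, Olfr828 and Olfr127. Olfr824 (chr10:130139805-130141097) was open in 2 Scml2-KO and 6 wild-type libraries, Olfr828 (chr9:18778809-18780020) in 3 and 7, and Olfr127 (chr17:37860887-37861702) in 1 and 5.

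Within each stage the genotypes were set side by side by counting regions open in both Scml2-KO libraries alone or in both wild-type libraries alone, without a test. At Thy1, 2 of 155 receptor regions open in 2 of 4 libraries were in both Scml2-KO libraries (1.29%, against 1.93% of all such regions) and 72 in both wild-type libraries (46.5%, against 14.4%). Of the 72, 35 were open in a cKit Scml2-KO library and 29 in a cKit wild-type library, and 30 were open in the Thy1 wild-type libraries alone. At RS, 6 of 91 were in both Scml2-KO libraries (6.59%, against 14.9%) and 16 in both wild-type libraries (17.6%, against 6.34%). At PS, 3 of 111 were in both Scml2-KO libraries (2.70%, against 2.02%) and 10 in both wild-type ones (9.01%, against 3.51%), and at cKit 2 of 167 in each (1.198%, against 0.321% and 1.4%). The list lengths differed in the same comparisons, with 108184 and 50739 autosomal peaks in Thy1 Scml2-KO against 132760 and 73211 in Thy1 wild type, and at RS 163610 and 26914 in Scml2-KO against 51945 and 30929 in wild type. Their part in these counts was not tested.

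Among the 72 Thy1 regions, the highest median fold enrichment was at a region upstream of Olfr1099 (chr2:86969945-86970580), named after its values were seen. It was at 8.44 and 12.0 in Thy1 wild type with no peak in Thy1 Scml2-KO, and at 9.06 in one cKit Scml2-KO library against 13.6 and 8.23 in cKit wild type. It had no peak in adult germ cells.

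By age, the share of receptor peaks was 0.404% ± 0.115 in adult germ cells and 0.451% ± 0.0982 in spermatogonia (SD, n = 8 each), a difference of -0.0471 percentage points that did not pass the test (exact permutation test, adjusted p = 0.533). With the same number of peaks taken from every list its sign turned, to 0.0553. The stage steps did not pass either, at 0.0104 for cKit minus Thy1, -0.0581 for PS minus cKit and 0.0116 for RS minus PS (adjusted p = 0.886, 0.533 and 0.886, exact permutation tests). Promoter class peaks were 7.92% of receptor peaks in adult germ cells and 5.75% in spermatogonia (adjusted p = 0.133, exact permutation test). Without PS wild-type replicate 2 that difference was 2.78 percentage points and passed (adjusted p = 0.0193, same exact permutation test).

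Genes that work with the receptors in sensory neurons were followed as a list. Of 15 olfactory signalling genes, 2 were tested at their promoter and both were called higher in spermatogonia (23.6% of all tested promoters were), Gng13, a G-protein gamma subunit, open in 0 adult germ cell and 6 spermatogonial libraries (adjusted p = 0.0247), and Slc24a4, a calcium exchanger, in 1 and 7 (adjusted p = 0.0308, Fisher's exact tests). The promoters of Gnb1 and Ric8b were open in all 16 libraries, as were those of 35.8% of protein-coding genes, that of the olfactory adenylyl cyclase Adcy3 in 15 and that of the olfactory G protein Gnal in 15. The olfactory marker protein gene Omp and Stoml3 had 0, and Rtp1 and Rtp2, which carry receptors to the cell surface, had 1 each. The 3 vomeronasal signalling genes were open in 15 or 16 libraries, namely Trpc2, the ion channel of vomeronasal neurons, with 16, Gnao1 with 16 and Gnai2 with 15. Of 16 genes known to regulate receptor choice in neurons, among them Lhx2, Ldb1 and Ebf1, 9 had an open promoter in all 16 libraries (against 35.8% of protein-coding genes), 1 could be tested and 0 were called (adjusted p = 1 for Ebf2, exact test).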

How the data were processed

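Chromatin accessibility was measured by ATAC-seq in 16 libraries, 2 for each of 8 groups given by the titles in the labels. Per the labels' protocols, libraries were size-selected on a gel and sequenced as 75-bp single reads. The submitters' processing notes list MACS2 2.1.0.20140616, Bowtie 1.1.1 and build mm10, with no peak calling options. The authors deposited 1 peak list per library, with a fold enrichment (a ratio over background), −log10 p and −log10 q values, the pileup (a signal at the summit) and the peak length, per the file headers. Scores and folds are the authors' values, used only to describe, rank or filter peaks.

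Lines with equal coordinates were joined, and peaks on 19 autosomes were merged across lists at an overlap of at least 1 bp. Presence of a peak per library was the measurement. Regions and promoters open in 5 to 11 libraries were tested with Fisher's exact test and Benjamini-Hochberg adjustment over all of them (threshold 0.05), and shares by exact permutation of the library labels. A promoter called recurrent had a promoter class peak in at least 4 libraries. The tests were checked on simulated data. Named regions were up to 8 per direction by adjusted p and fold enrichment, up to 15 recurrent promoters by number of libraries, up to 3 per stage step, the 3 lowest genotype p-values, the 5 regions open in most libraries, and Olfr16.

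Receptor genes include similar copies, and the treatment of reads that map to several of them is not given in the sources used here. Of the 4640 peaks, 329 named several receptors and 290 also named another gene. Names matched RefSeq symbols for 706 of 712 receptors. No label ties a replicate to its own animals, so the p-values rest on a spread between libraries that may be technical. Replicate numbers were taken from the titles. The names of the deposited lists number all 16 libraries differently. Libraries numbered 1 in the titles share a number there too, but those numbered 2 carry one number in spermatogonia and another in PS and RS. The members and gene lists were chosen with earlier results of these data known. Python 3.11.15, numpy 2.4.6, pandas 2.3.3 and scipy 1.17.1 were used.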

Additional observations from a re-analysis of the deposited data

Results flagged for a closer look

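In cKit Scml2-KO replicate 2, 1.72% of receptor peaks were of the promoter class, far below the other 3 cKit libraries, in the shortest list of the series. In cKit Scml2-KO replicate 1, the receptor share of 0.516% stood apart from the other 7 Scml2-KO libraries. Chance alone marks about 1 in 20 groups in this way, and 16 groups were examined. On the X and Y chromosomes, which were left out of all comparisons, 33 peaks carried a receptor name, 3 in Scml2-KO and 30 in wild-type libraries, and 27 of them were in PS wild-type replicate 1.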

How the results depend on the processing

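The promoter class and fold enrichment differences between receptor and other peaks kept their direction and their call in every alternative run that tested them. They were not tested with the replicate block or in replicate 1 lists alone. For Scml2-KO against wild type, the share difference of -0.163 percentage points kept its call with lists of equal length (-0.104), with stricter peak thresholds, and without each library in turn (-0.187 to -0.147). It missed the threshold in replicate 1 lists alone (-0.112) and replicate 2 lists alone (-0.214), where the smallest p is 0.125. It also missed it as a share of intergenic and upstream peaks (-0.262, and -0.368 without the shortest list; chosen after seeing the data, as was leaving out the first 1000 kb of each chromosome). Replicate numbers did not pair the samples over the whole series, as 11 of 28 pairs of groups had correlated deviations over 0.1. These were 6 of 6 pairs among PS and RS groups (0.204 to 0.439), 4 of 6 among spermatogonia (0.0641 to 0.326) and 1 of 16 across ages (-0.180 to 0.108), so the PS and RS libraries may be paired, though replicate 1 also had the longer list in each group. With the replicate block the share difference was -0.163 (adjusted p = 0.0417, exact permutation test), RS minus PS was 0.0116 (adjusted p = 0.889, exact permutation test), and the promoters called between the ages numbered 12 instead of 7.

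The age difference in share turned to 0.0553 with equal lists, 0.00501 at −log10 q of at least 5 and 0.0134 at fold enrichment of at least 5 (without each library -0.0667 to -0.0229). The promoter class share by age turned to -0.221 with equal lists and -0.104 in wild type alone, and ranged between 1.60 and 2.78 without each library. cKit minus Thy1 turned to -0.0430 without the first 1000 kb of each chromosome, -0.0655 in replicate 2 alone and -0.0458 in wild type alone (-0.0225 to 0.0686 without each library). RS minus PS turned to -0.0171 among intergenic and upstream peaks, -0.0122 in replicate 1 alone and -0.0216 in Scml2-KO alone (-0.0322 to 0.0553 without each library), and PS minus cKit ranged between -0.0991 and -0.0175.

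Counts moved most. The 178 receptor regions called by age became 41 with equal lists, 85 and 89 at the stricter thresholds of −log10 q and fold enrichment, 17 in replicate 2 alone, 86 in wild type alone, 0 in Scml2-KO alone and 12 with all regions tested (133 to 188 without each library). The 7 promoters became 3 under each of these 3 list settings and with all genes tested, 13 in replicate 1 alone, and 0 in replicate 2 and in Scml2-KO alone (7 to 15). Separated regions for PS against cKit numbered 11, 8 and 11 against 26 (26 to 86), for RS against PS 5, 3 and 5 against 9 (9 to 20), and for cKit against Thy1 1 against 3 with equal lists (3 to 22). Recurrent promoters numbered 5, 9 and 11 under the same settings, 3 at 8 of 16 libraries, and 21 to 26 without each library. Runs with 1 genotype or 1 replicate set 4 against 4 libraries, where adjustment calls every fully separated region or promoter or none. Their counts cannot compare the genotypes. The cause of the changes in these counts was not tested.

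Read depth is not known, and lists of 17410 to 163610 peaks limit what absence shows.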
